A study of Mus musculus with 33 samples.

Results

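The oxidative phosphorylation subunit genes are the nuclear genes that encode the subunits of mitochondrial complexes I to V. They were chosen by symbol: Ndufa, Ndufb, Ndufc, Ndufs and Ndufv genes followed by a number, Sdha to Sdhd, and symbols that begin with Uqcr, Cox4 to Cox8 or Atp5. Where a gene had several probes, the probe that averaged highest over the 33 arrays in the authors' deposited log2 values was taken. The rule found 78 of the 19057 genes that had a probe with a single symbol: 33 of complex I, 4 of complex II, 7 of complex III, 17 of complex IV, 16 of complex V and the pseudogene Ndufs5-ps. Ndufa4 was counted with complex IV, of which its protein is now known to be a subunit. Of the 78 members, 75 were above background on at least 3 arrays and were tested. Ndufs1, the largest subunit of complex I, and the isoform genes Cox8c and Cox7b2 were above background on 0 arrays and were not tested.

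The samples were mouse livers and liver tumours, each hybridised to 1 Illumina mouse whole-genome bead array, 33 arrays in all. They came as 11 hepatocellular carcinomas (HCC) of Sav1 -/- mice, 7 samples of the liver surrounding such tumours, 4 HCCs of Mst1/2 -/- mice and 3 samples of the liver surrounding those. The references were normal livers: 3 labelled Sav1 flox, 3 labelled Mst1/2 flox and 2 labelled Wt. Sav1 encodes a scaffold protein and Mst1 and Mst2 encode kinases of the Hippo pathway, which restrains liver growth. A flox allele is flanked by recombination sites and is intact until a recombinase acts on it. The labels give no recombinase or promoter, age, sex or diet, and do not say whether 2 samples came from 1 mouse. A p-value here thus reflects only how far samples of a group vary, part of which may be technical.

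Oxidative phosphorylation passes electrons from NADH through complex I and from succinate through complex II to coenzyme Q, then through complex III and cytochrome c to complex IV, where oxygen is reduced. Complexes I, III and IV pump protons across the inner mitochondrial membrane, and complex V, the ATP synthase, uses their return to make ATP. Hepatocytes are rich in mitochondria and draw on this pathway for the synthesis of glucose, urea and bile acids.

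Promoter sequence was available for 64 of the 78 members in the RefSeq annotation of build GRCm38.p6, as windows of 250 bases before and 50 bases after the transcription start. The windows were searched on both strands for 4 motifs known from respiratory genes. The core of the NRF1 site, GCGCANGCG, was present in 19 of the 64 genes (29.7%), against 6.25% of all 32851 windows. The ETS core CCGGAAG was in 16 genes (25%), against 8.86% of windows, and the YY1 motif AAGATGGCG in 7 (10.9%), against 1.40%. These motifs can overlap by the letters AAG. The estrogen-related receptor site AAGGTCA was in 7 genes (10.9%), against 4.72% of windows. The members' windows had a median GC content of 57.7%, against 52.7% over all windows, and a match is a description of the letters, not a binding site. The windows below belong to 4 genes that were lower in tumours (Ndufa10, Ndufa9, Uqcrc1 and Sdhb) and to 2 of those whose levels differed by at least 1 log2 unit between sets of arrays (Ndufb4 and Atp5e). Each is printed 5′ to 3′ on the gene's strand, with motif matches on either strand in capitals. Ndufa10 lies at chr1:92473709-92474008 (minus strand) and holds none of the 4 motifs. Ndufa9 lies at chr6:126849095-126849394 (minus strand) and holds the YY1 motif. Uqcrc1 lies at chr9:108936398-108936697 (plus strand) and holds the NRF1 core at 3 positions, 2 of which overlap. Sdhb lies at chr4:140961021-140961320 (plus strand) and holds the ETS core. Ndufb4 lies at chr16:37654319-37654618 (minus strand) and holds the NRF1 core at 3 positions and the receptor site at 1. Atp5e lies at chr2:174464052-174464351 (minus strand) and holds the ETS core and the receptor site.
Ndufa10: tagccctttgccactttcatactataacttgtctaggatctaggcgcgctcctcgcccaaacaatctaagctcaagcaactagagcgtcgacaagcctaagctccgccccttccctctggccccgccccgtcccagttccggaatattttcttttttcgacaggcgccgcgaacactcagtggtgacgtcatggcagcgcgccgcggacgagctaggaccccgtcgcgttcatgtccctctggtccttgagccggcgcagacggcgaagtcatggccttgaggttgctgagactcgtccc
Ndufa9: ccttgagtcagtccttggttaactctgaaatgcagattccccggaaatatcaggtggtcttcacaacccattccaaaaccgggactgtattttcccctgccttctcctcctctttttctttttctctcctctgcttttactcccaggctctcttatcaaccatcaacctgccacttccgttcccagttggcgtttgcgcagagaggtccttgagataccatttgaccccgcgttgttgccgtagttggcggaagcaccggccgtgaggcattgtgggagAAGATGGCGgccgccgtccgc
Uqcrc1: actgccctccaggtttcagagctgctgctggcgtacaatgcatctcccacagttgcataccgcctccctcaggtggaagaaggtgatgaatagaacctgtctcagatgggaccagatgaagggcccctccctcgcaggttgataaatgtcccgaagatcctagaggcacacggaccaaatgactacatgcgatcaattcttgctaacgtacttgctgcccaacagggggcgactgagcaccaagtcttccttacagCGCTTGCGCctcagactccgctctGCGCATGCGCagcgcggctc
Sdhb: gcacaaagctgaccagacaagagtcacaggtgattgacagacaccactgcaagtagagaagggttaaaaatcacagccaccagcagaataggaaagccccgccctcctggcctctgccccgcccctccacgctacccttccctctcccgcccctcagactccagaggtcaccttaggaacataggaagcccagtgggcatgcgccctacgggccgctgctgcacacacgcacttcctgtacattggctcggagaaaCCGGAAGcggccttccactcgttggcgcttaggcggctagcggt
Ndufb4: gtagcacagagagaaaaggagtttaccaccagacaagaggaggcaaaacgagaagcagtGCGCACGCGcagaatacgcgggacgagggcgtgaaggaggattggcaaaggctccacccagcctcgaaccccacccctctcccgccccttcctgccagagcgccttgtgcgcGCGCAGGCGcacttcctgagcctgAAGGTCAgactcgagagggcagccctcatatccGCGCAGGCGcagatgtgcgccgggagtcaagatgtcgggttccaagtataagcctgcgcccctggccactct
Atp5e: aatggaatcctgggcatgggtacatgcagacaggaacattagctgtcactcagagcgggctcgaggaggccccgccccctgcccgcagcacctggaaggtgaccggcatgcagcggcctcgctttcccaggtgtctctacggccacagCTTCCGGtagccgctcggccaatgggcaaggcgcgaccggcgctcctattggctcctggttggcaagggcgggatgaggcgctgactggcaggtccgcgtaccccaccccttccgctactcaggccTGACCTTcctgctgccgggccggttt

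Levels are given below as log2 of the background-corrected, quantile-normalized intensity of 1 probe, and differences as differences of group means on that log2 scale, with the standard error of the fit. A difference of 1 is 2-fold. A gene passed the test where its p-value from limma, adjusted by the Benjamini-Hochberg method over all 13978 genes tested, was under 0.05. Levels of different probes cannot be set against each other, and fewer cells of a type and less RNA per cell cannot be told apart in these whole-tissue samples.

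Several properties of the arrays bear on the members. The Sav1 probe averaged 9.00 ± 0.49 in Sav1 -/- tumours, 9.11 ± 0.32 in surrounding liver and 9.26 ± 0.33 in Sav1 flox livers (SD), with an adjusted p of 0.41 for tumour against flox liver. The Stk4 (Mst1) probe averaged 9.77 ± 0.17 in Mst1/2 -/- tumours, 9.80 ± 0.14 in surrounding liver and 9.65 ± 0.12 in Mst1/2 flox livers, with an adjusted p of 0.81 for tumour against flox liver. Whether these probes lie inside the deleted part was not known, so their levels are no check on the labels, and Stk3 (Mst2) was not analysed here. The intensities of 11 hepatocyte markers summed to 243518 to 320253 in Sav1 -/- tumours and 249839 to 295288 in the surrounding liver, against 295143 to 317260 in Sav1 flox livers, and to 281252 to 294279 in Mst1/2 -/- tumours and 271079 to 279868 in the surrounding liver, against 288063 to 300702 in Mst1/2 flox livers. The 6 macrophage markers summed to 7817 to 45904 in Sav1 -/- tumours and 12564 to 44246 in Sav1 -/- surrounding liver, against 3490 to 6068 in Sav1 flox livers. They summed to 18490 to 23101 in Mst1/2 -/- tumours and 12103 to 21398 in the surrounding liver, against 6109 to 6641 in Mst1/2 flox livers. The 5 cholangiocyte and progenitor markers tested summed to 1066 to 22030 in Sav1 -/- tumours and 1441 to 4675 in the surrounding liver, against 808 to 1141 in Sav1 flox livers. They summed to 5318 to 10805 in Mst1/2 -/- tumours and 6096 to 8900 in the surrounding liver, against 906 to 1095 in Mst1/2 flox livers. The 7 endothelial markers summed to 1309 to 3519 in Sav1 -/- tumours against 3002 to 4346 in the surrounding liver, and to 1456 to 3994 in Mst1/2 -/- tumours against 3119 to 3625 in the surrounding liver. The 8 stellate and fibroblast markers summed to 1710 to 21958 in Sav1 -/- tumours against 14216 to 45126 in the surrounding liver, and to 8717 to 31006 in Mst1/2 -/- tumours against 21690 to 31736 in the surrounding liver. These sums add intensities on the linear scale, so the brightest probes weigh most in them. Averaged over all arrays, Sox9 was at 11.38, against 6.45 to 7.13 for the other cholangiocyte and progenitor markers tested. Among the hepatocyte markers Trf was at 15.62 and Alb at 8.56, and among the stellate and fibroblast markers Dcn was at 13.23 and Col1a1 at 7.23. The part of these cell types in the differences of the subunit genes was not tested.

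Sav1 flox liver 2 and Wt liver 7 stood apart from the other normal livers over most subunit genes. In Sav1 flox liver 2, 67 of the 75 members were lower than the mean of Sav1 flox livers 1 and 3, 45 of them at least 2-fold, and the median difference was -1.14. Atp5g2 was 2.11 lower on the log2 scale, whereas Atp5a1, Atp5b, Atp5c1, Ndufa10, Ndufv1, Uqcrc1, Uqcrc2 and Cox6b2 were not lower. In Wt liver 7, 67 members were lower than in Wt liver 8, 40 of them at least 2-fold, with a median difference of -1.01, and Atp5a1, Atp5b, Ndufv1, Uqcrc1 and Uqcrc2 were again among those that were not lower. Relative to each gene's median over all arrays, the median deviation of the members was -1 in Sav1 flox liver 2 and -0.88 in Wt liver 7. The mitochondrial ribosomal protein genes deviated by -0.70 and -0.77 on the same 2 arrays, and the citrate cycle genes by 0.26 and 0.21. The member deviation of the remaining 31 arrays lay between -0.61 and 0.33. Counts of lower genes on these 2 livers were not made over all genes, so how far other genes were lower there is not known. Counts of members for Sav1 -/- samples against Sav1 flox livers, and for tumours against Wt livers, are also given without the liver concerned. Some other counts, such as those of the F test and of fits with median scaling or array weights, are given only with these 2 livers. The fit over all arrays takes the spread of a gene from all groups, so these 2 livers also enter the tests between other groups, those of Mst1/2 samples included.

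The arrays were grouped by the correlations of dim probes, which carry mostly background, into 3 sets that no label names. The number of sets was imposed, not estimated. Set A held tumours 1 to 3 and surrounding livers 1 to 3 of the Sav1 -/- mice and the 3 Sav1 flox livers. Set B combined the Mst1/2 arrays and the Wt livers with Sav1 -/- tumours 6 to 11, and set C held Sav1 -/- tumours 4 and 5 and surrounding livers 4 to 7. The mean correlation within a set was 0.15, 0.01 and 0.02 in sets A, B and C, against -0.10, -0.08 and -0.04 with arrays of other sets. The sets were formed from these same correlations, so the values are no independent test of the sets. All Mst1/2 comparisons lay within set B, whereas the Sav1 comparisons spanned sets. The female-specific transcript Xist was at 6.07 to 6.30 in Mst1/2 -/- tumours and 6.07 to 6.18 in the surrounding livers, against 10.51 to 11.17 in Mst1/2 flox livers, and at 5.97 to 6.48 in the other groups. The Y-linked Eif2s3y was at 10.59 to 11.19 in Mst1/2 -/- tumours and 11.24 to 11.32 in the surrounding livers, against 6.05 to 6.16 in the flox livers. Its level in Sav1 -/- tumours spread from 7.47 to 12.20. In both comparisons with Mst1/2 flox livers, tissue and the pattern of sex-linked genes therefore cannot be told apart.

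**Figure D1:**
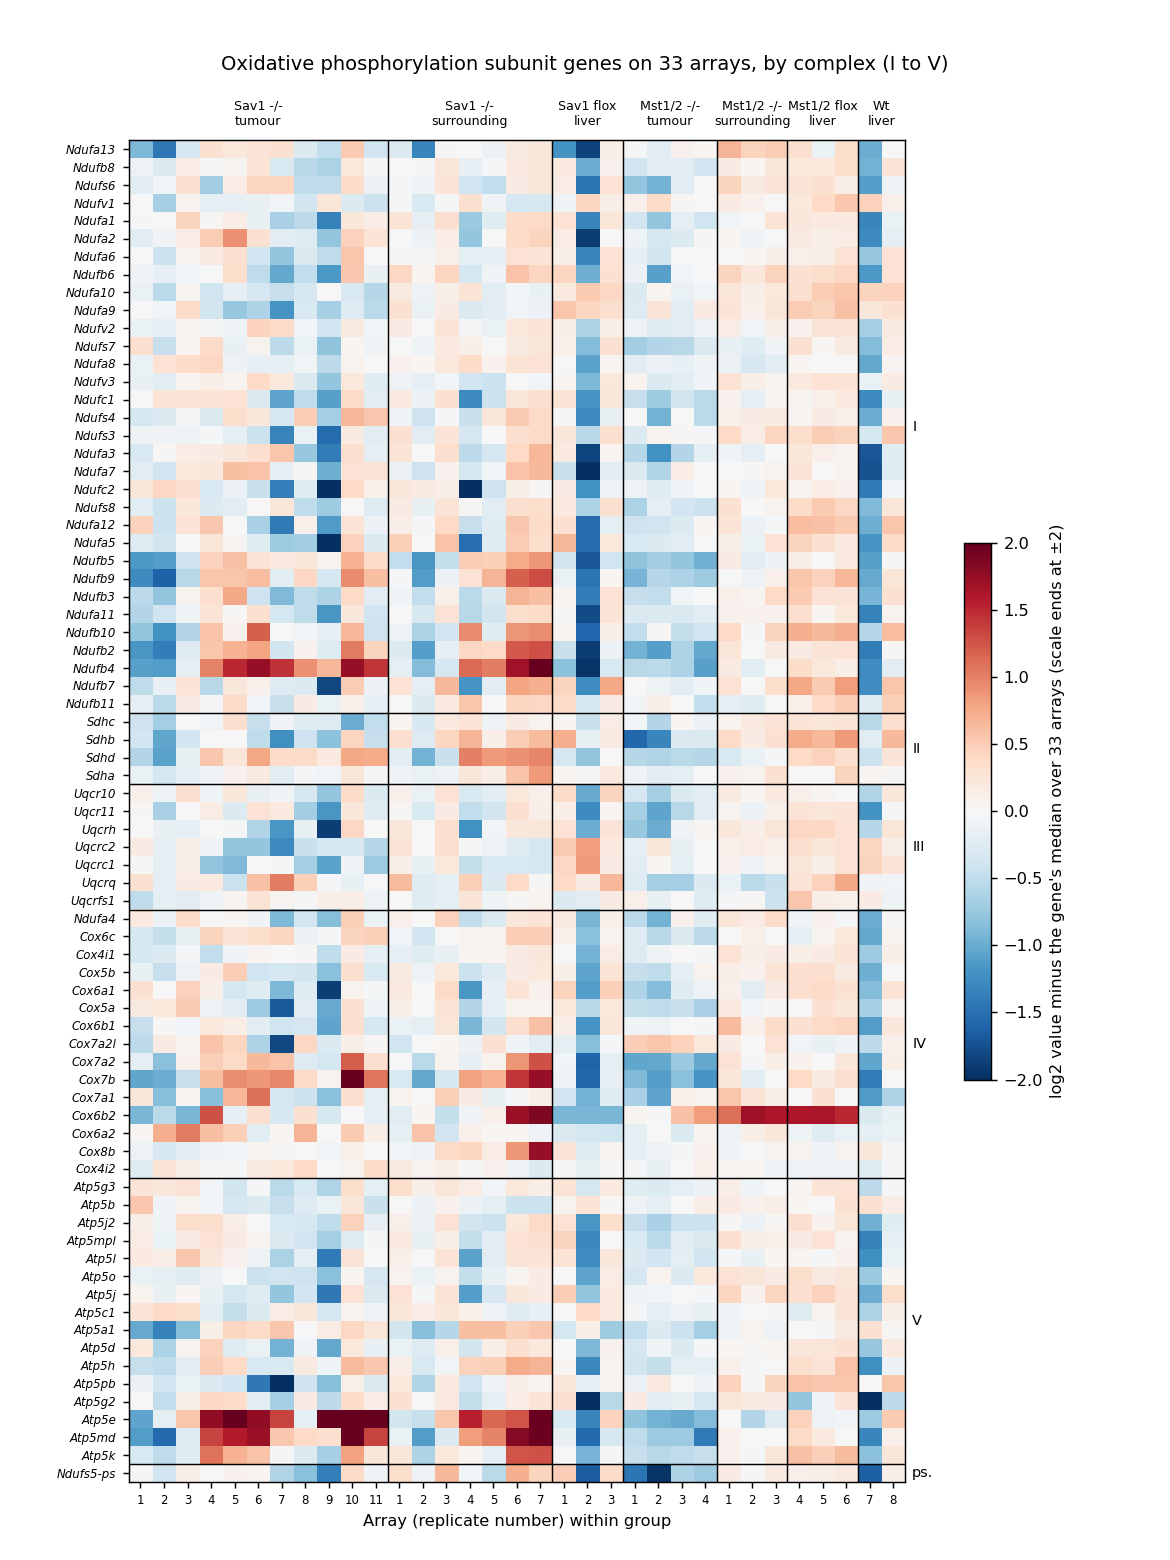
Log2 level of the 75 tested subunit genes on the 33 arrays, each as its difference from the gene's median over all arrays, with colour ends at -2 and 2. Rows are genes ordered by complex, columns are arrays ordered by group, and Sav1 flox liver 2 and Wt liver 7 show as columns of low values over most rows.

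Most subunit probes were far above background. The probe of Atp5g3, a gene for the c subunit of the ATP synthase ring, averaged 15.19 over all arrays, that of Atp5b, the catalytic beta subunit, 14.94 and that of Ndufa4 14.39. The probe of Cox4i2 was above background on 3 of the 11 Sav1 -/- tumour arrays and on 0 arrays of the other groups. Among all 7 groups, 16 of the 75 members (21.3%) differed in the F test of limma, against 45.8% of all genes.

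In Sav1 -/- tumours, 3 of the 75 subunit genes (4%) fell relative to Sav1 -/- surrounding liver and 0 rose, against 12.9% of all genes in either direction and 5.85% that fell. The 3 were Sdhb of complex II, Ndufa10 of complex I and Cox8b, a muscle-type isoform of complex IV. The estimated difference was below 0 for 63 of the 75 members, compared with 45.8% of all genes, and the members' median difference was -0.18, against 0.02 over all genes. By complex, the median was -0.19 for complex I, -0.31 for complex II, -0.12 for complex III, -0.15 for complex IV and -0.12 for complex V.

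Sdhb, the iron-sulfur subunit that carries electrons from succinate to coenzyme Q, had a lowest, median and highest log2 level of 10.82, 11.63 and 12.48 in Sav1 -/- tumours, against 11.78, 12.48 and 12.73 in Sav1 -/- surrounding liver. It averaged 11.61 ± 0.48 in the tumours (SD, n = 11) and 12.39 ± 0.33 in the surrounding liver (SD, n = 7). The ranges overlapped, with 10 of 11 tumours below the mean of the surrounding livers. The difference was -0.79 ± 0.21 (limma, adjusted p = 0.011), and the other 2 probes of Sdhb gave -0.48 and -0.67. In Mst1/2 -/- tumours Sdhb was at 10.47, 10.74, 11.75 and 11.76, against 12.43, 12.21 and 12.36 in the surrounding livers. All 4 tumours lay below all 3 surrounding livers, but the difference of -1.15 ± 0.33 did not pass (adjusted p = 0.22).

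Ndufa10, an accessory subunit of the membrane arm of complex I, had a lowest, median and highest level of 12.34, 12.59 and 12.96 in Sav1 -/- tumours, against 12.69, 12.86 and 13.19 in Sav1 -/- surrounding liver. It averaged 12.62 ± 0.21 in tumours (SD, n = 11) and 12.92 ± 0.19 in surrounding liver (SD, n = 7), with overlapping ranges. The difference was -0.30 ± 0.09 (adjusted p = 0.024). In Mst1/2 -/- tumours it was at 12.62, 12.97, 12.78 and 12.86, against 13.15, 13.05 and 13.12 in the surrounding livers, which were all higher. That difference was also -0.30 and did not pass (adjusted p = 0.61).

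The 3 calls varied with the array sets and with single libraries. With the set as a block, the difference between Sav1 -/- tumours and surrounding liver was -0.64 for Sdhb (adjusted p = 0.1), -0.26 for Ndufa10 (adjusted p = 0.14) and -0.56 for Cox8b (adjusted p = 0.034). Within set A, Sdhb differed by -0.77 (adjusted p = 0.46) and within set C by -0.49 (adjusted p = 0.18). Ndufa10 did not pass without surrounding liver 1, 3 or 4 (adjusted p = 0.066, 0.058 and 0.069). In sets A and C 0 members passed by limma, with 4 and 7 at an unadjusted p under 0.05, against 0.0429% and 5.77% of all genes that passed.

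In Mst1/2 -/- tumours, 0 of the 75 members passed against Mst1/2 -/- surrounding liver by limma, with 8 at an unadjusted p under 0.05, and 0.0644% of all genes passed. The estimate was below 0 for 70 of 75 members, compared with 48.4% of all genes, and the members' median difference was -0.38, against 0.01 over all genes. It was below 0 for all 16 complex V genes, with a median of -0.33, and the medians of complexes I, II, III and IV were -0.38, -0.39, -0.15 and -0.44. Ndufs5-ps (-1.30), Sdhb (-1.15) and Cox6b2 (-1.10) had the most negative estimates. With array weights 11 members fell, against 8.96% of all genes that passed in that fit.

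**Figure D2:**
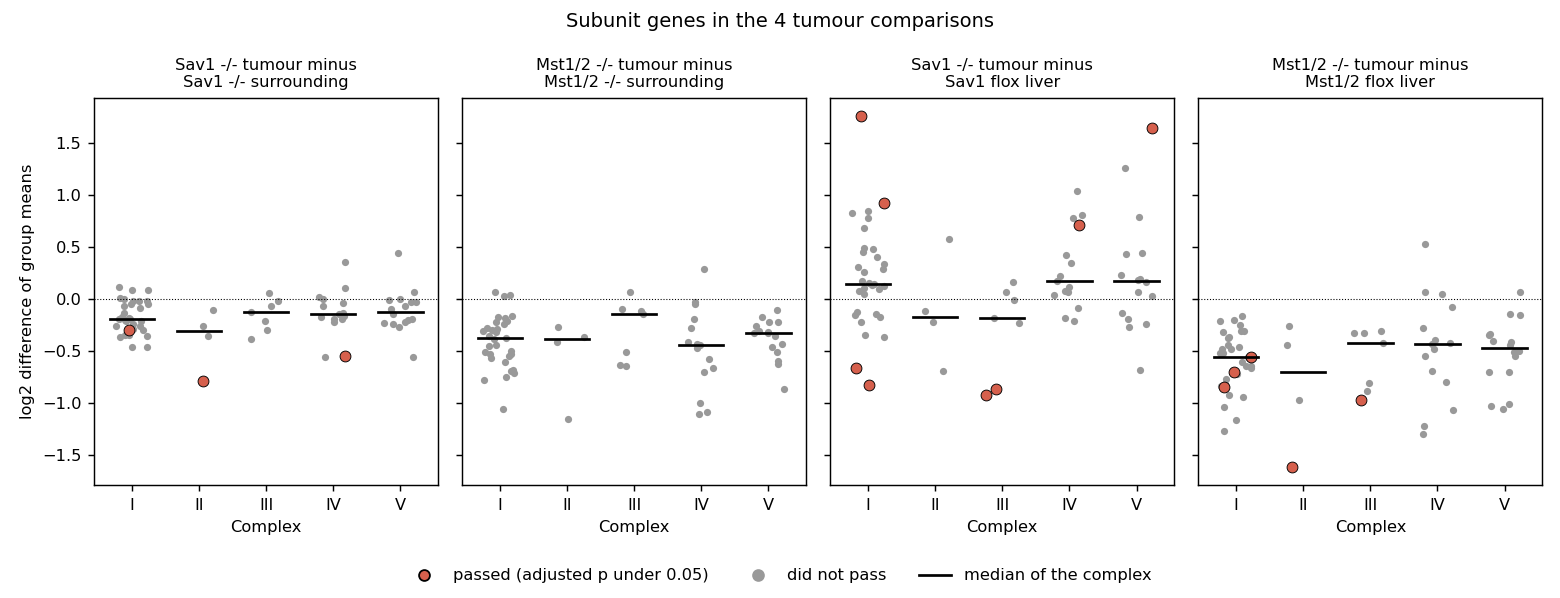
Log2 difference of each tested subunit gene in 4 tumour comparisons, by complex, with genes that passed limma at an adjusted p under 0.05 in red and the median of each complex as a line. Both Mst1/2 -/- comparisons lie mostly below 0, and the comparison of Sav1 -/- tumours with Sav1 flox livers lies on both sides of 0.

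Relative to Sav1 flox livers, 4 of the 75 members fell and 4 rose in Sav1 -/- tumours (10.7%), against 33.4% of all genes, 16% that fell and 17.4% that rose. Ndufa10, Ndufa9, Uqcrc1 and Uqcrc2 fell, whereas Atp5e, Ndufb4, Ndufa7 and Cox6a2 rose. The estimate was below 0 for 25 of 75 members, compared with 45.0% of all genes, and the median was 0.12, against 0.05 over all genes. Without Sav1 flox liver 2, the median of the members was -0.25, 53 estimates were below 0 and 5 members passed (the 4 that fell and Cox6a2), against 21.0% of all genes.

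With median scaling in place of quantile normalization, 20 members passed, against 37.9% of all genes, and 19 of them rose. Of the 4 that fell, Uqcrc2 then passed (-0.59, adjusted p = 0.022), whereas Ndufa10 (-0.30, adjusted p = 0.12), Ndufa9 (-0.43, adjusted p = 0.077) and Uqcrc1 (-0.42, adjusted p = 0.063) did not. That scaling moved the median over all genes to 0.29.

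Uqcrc1 and Uqcrc2, the 2 core proteins of complex III, had the most negative estimates. Uqcrc2 was at 12.23, 13.15 and 13.66 (lowest, median, highest) in Sav1 -/- tumours, against 14.03, 14.33 and 13.70 in Sav1 flox livers 1, 2 and 3. All 11 tumours lay below all 3 flox livers, and the difference was -0.93 ± 0.20 (adjusted p = 0.0009). Uqcrc1 was at 11.27, 12.16 and 12.48 in Sav1 -/- tumours, against 12.75, 13.19 and 12.50 in the flox livers, again with no overlap. Its difference was -0.86 ± 0.21 (adjusted p = 0.0021). Without Sav1 flox liver 2 the estimates were -0.77 for Uqcrc2 (adjusted p = 0.021) and -0.68 for Uqcrc1 (adjusted p = 0.043).

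Ndufa10 was at 12.34, 12.59 and 12.96 in Sav1 -/- tumours, against 13.10, 13.43 and 13.33 in Sav1 flox livers, with no overlap. The difference was -0.67 ± 0.12 (adjusted p = 0.00013), and -0.59 without Sav1 flox liver 2 (adjusted p = 0.0041). Ndufa9, an accessory subunit at the junction of the 2 arms of complex I, was at 11.65, 12.46 and 13.21 in the tumours, against 13.39, 13.26 and 13.15 in the flox livers. The highest tumour exceeded the lowest flox liver, and the difference was -0.83 ± 0.19 (adjusted p = 0.0017). Sdhb was at 10.82, 11.63 and 12.48 in the tumours, against 12.77, 11.90 and 12.22 in Sav1 flox livers, with overlap, and its difference of -0.69 ± 0.28 did not pass (adjusted p = 0.055), nor did it without Sav1 flox liver 2 (-0.89, adjusted p = 0.051).

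Of the 4 members that rose, 3 did not pass without Sav1 flox liver 2. Ndufb4, an accessory subunit of the membrane arm of complex I, was at 8.63, 10.73 and 11.49 in Sav1 -/- tumours, against 8.92, 7.77 and 9.43 in Sav1 flox livers, and differed by 1.76 ± 0.56 (adjusted p = 0.016). Atp5e, the epsilon subunit of the ATP synthase stalk, was at 8.42, 11.24 and 12.10 in the tumours, against 9.17, 8.15 and 9.93 in the flox livers, and differed by 1.64 ± 0.60 (adjusted p = 0.036). Both genes overlapped between the groups, and Sav1 flox liver 2 was the lowest of the 3 flox livers in each. Without that liver the differences were 1.30 for Ndufb4 (adjusted p = 0.15) and 1.18 for Atp5e (adjusted p = 0.24). Ndufa7, an accessory subunit of the matrix arm of complex I, was at 11.40, 12.59 and 12.98 in the tumours, against 11.93, 10.37 and 12.16 in the flox livers. Its difference of 0.93 ± 0.31 (adjusted p = 0.024) was 0.37 without Sav1 flox liver 2 (adjusted p = 0.43).

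Within array set A, the only set with Sav1 flox livers, 0 members passed by limma in Sav1 -/- tumours against flox livers, with 4 at an unadjusted p under 0.05, and 3.29% of all genes passed. There the estimates were -0.58 for Ndufa10 (adjusted p = 0.16), -0.48 for Uqcrc2 (0.25), -0.48 for Uqcrc1 (0.26) and -0.33 for Ndufa9 (0.34), compared with 0.23 for Ndufb4 and 0.16 for Atp5e. With the set as a block, Ndufa10 (-0.58, adjusted p = 0.0048) and Uqcrc1 (-0.57, adjusted p = 0.042) were among 4 members that passed, against 19.9% of all genes. With the set as a block and without Sav1 flox liver 2, the estimates of Ndufb4 and Atp5e were below 0, at -0.21 and -0.11.

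Against the 2 Wt livers in place of the Sav1 flox livers, 6 members passed in Sav1 -/- tumours and 27.6% of all genes did. Ndufa10 (-0.74, adjusted p = 0.00031), Ndufa9, Uqcrc1 and Uqcrc2 fell, and Atp5g2 and Ndufa7 rose. Without Wt liver 7 only Ndufa10 passed (-0.75, adjusted p = 0.02), against 6.76% of all genes.

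**Figure D3:**
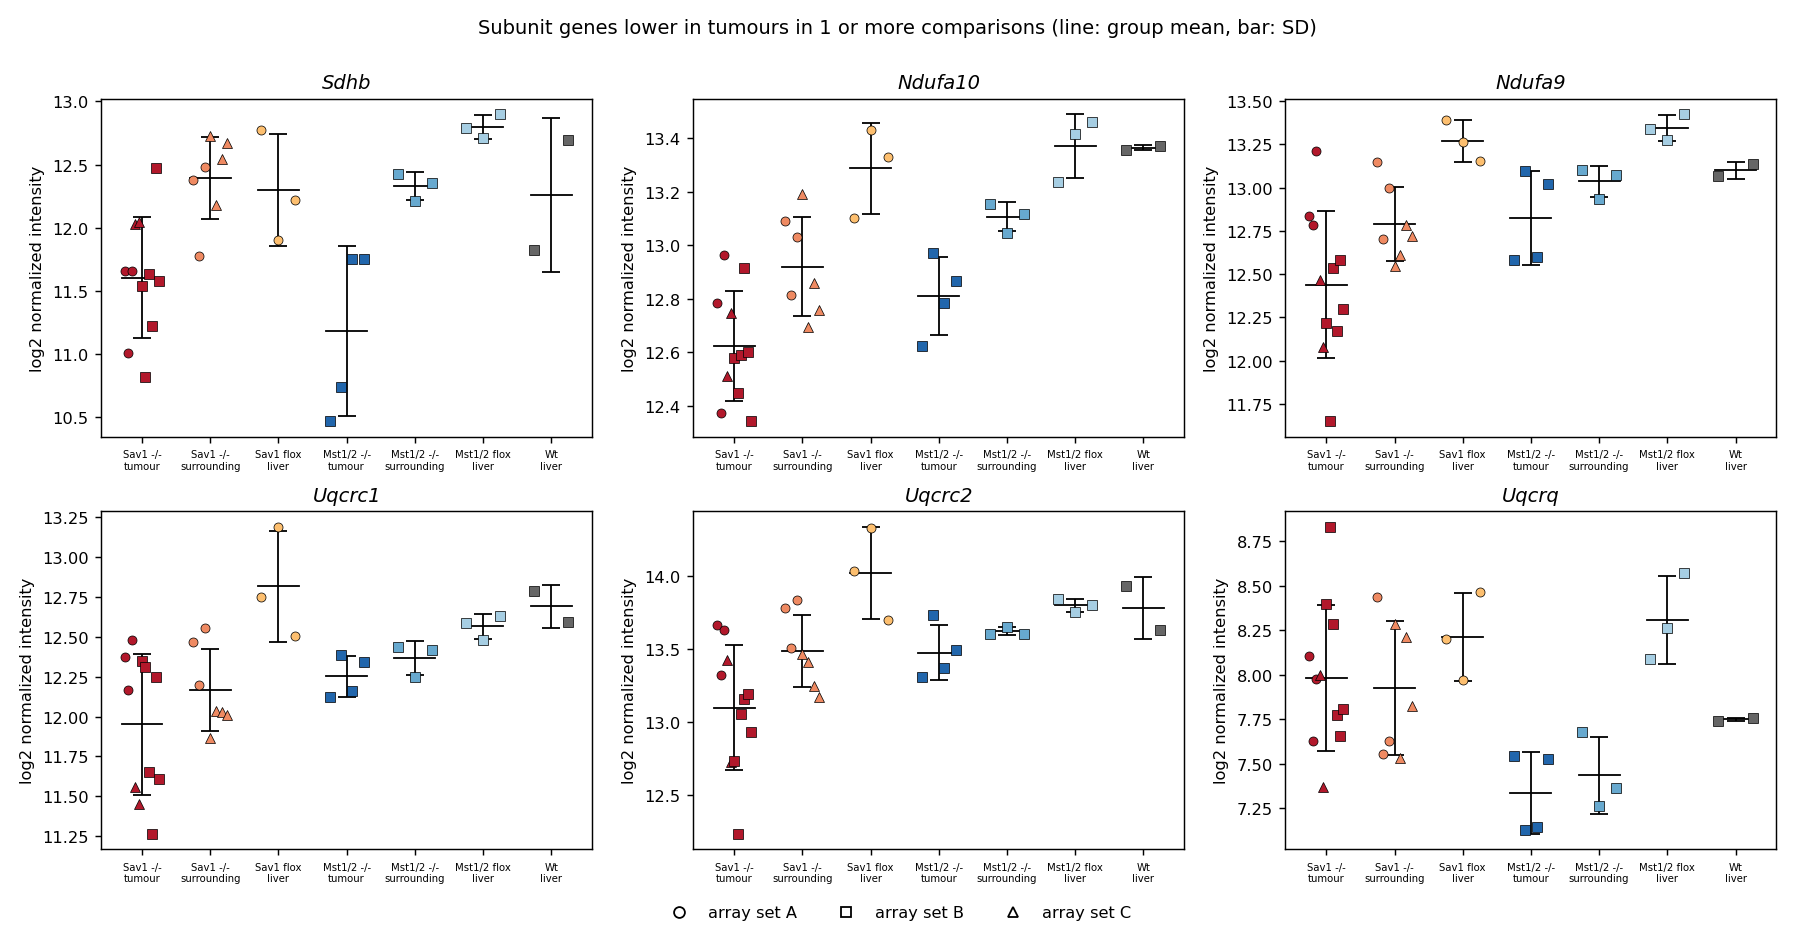
Log2 level of Sdhb, Ndufa10, Ndufa9, Uqcrc1, Uqcrc2 and Uqcrq on each array, by group, with points for samples, lines for the mean and bars for the SD. All 4 Mst1/2 -/- tumours lie below the 3 Mst1/2 flox livers for Sdhb, Ndufa10 and Uqcrq, and all 11 Sav1 -/- tumours lie below the 3 Sav1 flox livers for Ndufa10, Uqcrc1 and Uqcrc2.

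In Mst1/2 -/- tumours, 6 of the 75 members (8%) fell relative to Mst1/2 flox livers and 0 rose, against 20.3% of all genes in either direction and 8.99% that fell. Far more members passed in a fit on these groups alone, which is given below. The estimate was below 0 for 71 of the 75 members, compared with 50.1% of all genes, and the median was -0.51, against 0.00 over all genes. All 32 tested complex I genes were below 0, with a median of -0.56. The medians of complexes II, III, IV and V were -0.71, -0.42, -0.43 and -0.47. Cox7a2l, which helps assemble supercomplexes, had the highest estimate (0.52, adjusted p = 0.3).

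Sdhb was at 10.47, 10.74, 11.75 and 11.76 in Mst1/2 -/- tumours, against 12.79, 12.71 and 12.90 in Mst1/2 flox livers, with no overlap. Its difference was -1.62 ± 0.33 (adjusted p = 0.00083), and its other 2 probes gave -1.30 and -1.63. Ndufa10 was at 12.62, 12.97, 12.78 and 12.86 in the tumours, against 13.24, 13.42 and 13.46 in the flox livers, also with no overlap, and differed by -0.56 ± 0.14 (adjusted p = 0.0051). The matrix-arm core subunits of complex I, which hold iron-sulfur clusters, included 2 that fell. Ndufs8 was at 11.40, 11.85, 11.66 and 11.60 in the tumours, against 12.41, 12.56 and 12.45 in the flox livers, and differed by -0.85 ± 0.23 (adjusted p = 0.011). Ndufs7 was at 12, 12.10, 12.13 and 12.40 in the tumours, against 12.99, 12.73 and 12.87 in the flox livers, and differed by -0.71 ± 0.25 (adjusted p = 0.042). Neither gene overlapped between the groups.

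Uqcrq, a small subunit of complex III, was at 7.54, 7.13, 7.14 and 7.53 in Mst1/2 -/- tumours, against 8.09, 8.26 and 8.57 in Mst1/2 flox livers, and differed by -0.97 ± 0.26 (adjusted p = 0.0075). The groups did not overlap, but the other Uqcrq probe, above background on 4 arrays, gave -0.11. Uqcrq was at 7.68, 7.26 and 7.36 in Mst1/2 -/- surrounding liver, also below all flox livers, with a difference of -0.87 (adjusted p = 0.068). Ndufs5-ps was at 10.26, 9.74, 11.09 and 10.97 in the tumours, against 11.80, 11.83 and 11.88 in the flox livers, with no overlap and a difference of -1.32 (adjusted p = 0.035). A pseudogene can share probe sequence with its parent gene, so this level is uncertain.

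In a fit on these groups alone, which all lie in set B, 50 of the 75 members passed and 49 of them fell, against 33% of all genes. The spread in that fit does not include Sav1 flox liver 2 or Wt liver 7. The 6 members that fell in the fit over all 33 arrays were among the 49. Against the 2 Wt livers, 2 members passed and 21.3% of all genes did. The tumours and the Wt livers both had a low Xist level, at 6.07 to 6.30 in the tumours and 6.29 and 6.30 in the Wt livers. They differed in Eif2s3y, which was at 10.59 to 11.19 in the tumours, against 6.69 and 6.97 in the Wt livers. Another Y-linked gene, Kdm5d, overlapped between them, at 7.53 to 8.46 in the tumours and 7.52 and 8.29 in the Wt livers. It was at 6.04 to 6.29 in Mst1/2 flox livers. The 2 members were Sdhb (-1.08) and Ndufa10 (-0.55), whereas the median over the 75 members was 0.04. Without Wt liver 7 the median was -0.40 and 0 members passed by limma, with 4 at an unadjusted p under 0.05, against 5.95% of all genes that passed.

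In Sav1 -/- surrounding liver, 1 of the 75 members (1.33%) rose relative to Sav1 flox livers and 0 fell, against 10.5% of all genes in either direction and 5.04% that rose. The member was Cox6b2, described with the other isoforms. The median difference was 0.27, against 0.02 over all genes, and 10 of 75 estimates were below 0, compared with 47.2% of all genes. Without Sav1 flox liver 2 the median was -0.09, 47 estimates were below 0 and 0 members passed by limma, with 1 at an unadjusted p under 0.05, against 2.22% of all genes that passed. Uqcrc1 (-0.65, adjusted p = 0.053) and Ndufa10 (-0.37, adjusted p = 0.058) had negative estimates in the surrounding liver that missed the threshold, and were at -0.46 (adjusted p = 0.32) and -0.30 (adjusted p = 0.28) without Sav1 flox liver 2. In Mst1/2 -/- surrounding liver, 0 members passed against Mst1/2 flox livers by limma, with 2 at an unadjusted p under 0.05, and 3.88% of all genes passed. The median was -0.13 and 59 of 75 estimates were below 0, compared with 49.9% of all genes.

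Sav1 -/- tumours differed from Mst1/2 -/- tumours in 2 of the 75 members (2.67%), against 3.84% of all genes, and both were higher in the Sav1 -/- tumours, as were 1.43% of all genes. Atp5e was at 8.42, 11.24 and 12.10 (lowest, median, highest) in Sav1 -/- tumours, against 8.67, 8.53, 8.47 and 8.60 in Mst1/2 -/- tumours, and differed by 2.16 ± 0.54 (adjusted p = 0.023). Cox7a2, the liver-type isoform of a small complex IV subunit, was at 9.59, 10.76 and 11.65 in Sav1 -/- tumours, against 9.38, 9.41, 9.69 and 9.40 in Mst1/2 -/- tumours, and differed by 1.15 ± 0.31 (adjusted p = 0.035). The Mst1/2 -/- tumours lay close together for both genes, and the ranges overlapped at the low end of the Sav1 -/- tumours. Without Mst1/2 -/- tumour 1, 2 or 4, 0 members passed by limma, with 15, 10 and 15 at an unadjusted p under 0.05, against 1.19%, 1.2% and 2.1% of all genes that passed.

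Within set B, which holds 6 of the 11 Sav1 -/- tumours and all Mst1/2 -/- tumours, 11 members were higher in the Sav1 -/- tumours, against 5.63% of all genes. They were Atp5e (2.59, adjusted p = 0.014), Cox7a2 (1.32, adjusted p = 0.026), Atp5a1, Atp5md, Cox6c, Cox7b, Ndufb2, Ndufb4, Ndufb5, Ndufb9 and Sdhd. All of these but Cox7a2 and Cox6c also differed by at least 1 log2 unit between array sets within Sav1 -/- tumours, as given below. The mean correlation of dim probes within set B was only 0.01, so the set may not be uniform, and a comparison inside it may not be free of array differences. With the set as a block over all arrays, 12 were higher and 3 lower (Atp5pb, Ndufa9 and Uqcrc2), against 13.7% of all genes. The median over the members was 0.18, and 0.07 within set B.

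Between the surrounding livers of Sav1 -/- and Mst1/2 -/- mice 0 members passed by limma, with 4 at an unadjusted p under 0.05, against 0.951% of all genes. The 2 groups share no array set, so set and genotype cannot be told apart between them. With the replicate number as a block, the fit kept only surrounding livers 1 to 3 of each genotype. Those of Sav1 -/- mice were all of set A and those of Mst1/2 -/- mice of set B. Cox6b2 and Ndufb10 were then lower in Sav1 -/- surrounding liver, 2 of 75 members against 6.07% of all genes.

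The differences between genotypes in what the tumours did were tested directly. For tumour against surrounding liver, 0 members passed the interaction term by limma, with 2 at an unadjusted p under 0.05, and 0.0858% of all genes passed. The median of the interaction, Sav1 -/- minus Mst1/2 -/-, was 0.25. For tumour against flox liver, 0 members passed, with 30 at an unadjusted p under 0.05, and 1.12% of all genes passed. Its median was 0.66, with 10 of 75 below 0, compared with 48.7% of all genes, and the lowest adjusted p belonged to Cox7a2 (1.87 ± 0.53, adjusted p = 0.081). Without Sav1 flox liver 2 the median was 0.23, with 16 of 75 below 0. All Sav1 flox livers lay in set A and all Mst1/2 arrays in set B, and only the Mst1/2 flox livers had high Xist. Genotype, array set and the pattern of sex-linked genes therefore cannot be told apart in the term with flox liver.

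Some members differed between array sets within 1 tissue. In Sav1 -/- tumours, 10 of the 75 members were at least 1 log2 unit higher in sets B and C than in set A. These were Atp5md (2.14), Ndufb4 (2.10), Atp5e (2.03), Cox7b (1.73), Ndufb9 (1.53), Atp5a1 (1.35), Ndufb2 (1.31), Ndufb5 (1.25), Sdhd (1.10) and Ndufb10 (1.09). In Sav1 -/- surrounding liver, the difference between set C and set A was at least 1 for 11 members, the same 10 and Cox6b2 (1.12). Ndufc2 had the most negative difference between sets, -0.84 in tumours and -0.77 in surrounding liver. The share of all genes that differed this much between sets was not computed, so whether these counts are particular to the members is not known.

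Ndufb4 was at 8.63 to 9.55 in the 3 Sav1 -/- tumours of set A, at 10.41 to 11.49 in the 6 of set B and at 10.73 and 11.25 in the 2 of set C. In Sav1 -/- surrounding liver it was at 8.88 to 9.55 in set A and at 10.77 to 11.80 in set C. Set A did not overlap with the other sets in either tissue, and tumours and surrounding livers of set A overlapped. On other arrays of set B, Ndufb4 was lower than in the Sav1 -/- tumours of that set, at 9.18, 9.19, 9.11 and 8.65 in the Mst1/2 -/- tumours and at 10.10, 9.96 and 9.88 in the Mst1/2 flox livers. Cox7b, an X-linked small subunit of complex IV, was at 8.72 to 9.30 in Sav1 -/- tumours of set A and 9.84 to 12.07 in those of set B, and at 8.87, 8.66, 8.92 and 8.58 in Mst1/2 -/- tumours. The cause of the differences between sets was not tested.

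**Figure D4:**
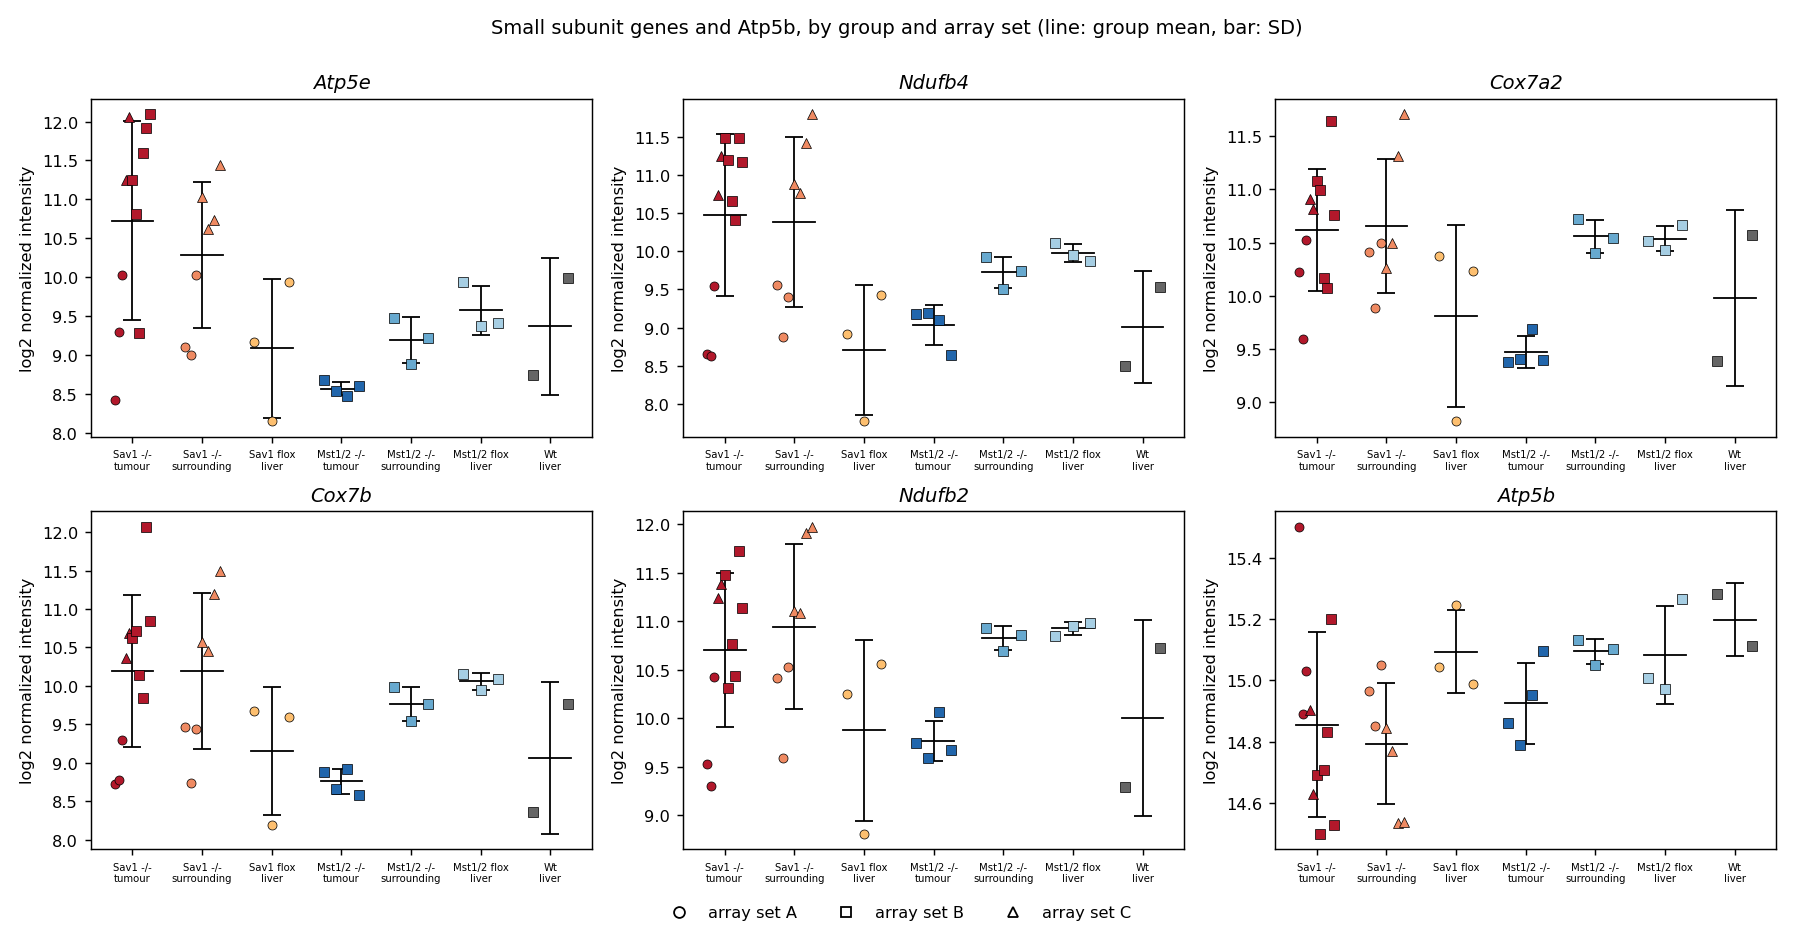
Log2 level of Atp5e, Ndufb4, Cox7a2, Cox7b, Ndufb2 and Atp5b on each array, by group, with circles for array set A, squares for set B and triangles for set C. Among Sav1 -/- samples the circles lie lowest for Ndufb4 and Cox7b, and Mst1/2 -/- tumours (squares) lie near them.

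Complex II was measured by its 4 genes with unequal quality. Sdhc, a membrane anchor, averaged 12.33 ± 0.36 in Sav1 -/- tumours and 12.69 ± 0.20 in surrounding liver, and differed by -0.35 (adjusted p = 0.11). It averaged 12.46 ± 0.28 in Mst1/2 -/- tumours and 12.90 ± 0.02 in Mst1/2 flox livers (-0.44, adjusted p = 0.18). Sdhd, the other anchor, averaged 10.59 ± 0.03 in Mst1/2 -/- tumours and 11.56 ± 0.06 in Mst1/2 flox livers, with no overlap, and the difference of -0.97 did not pass (adjusted p = 0.093). Sdha, the flavoprotein subunit that oxidises succinate, was above background on 12 of 33 arrays and gave a median of 6.30 in Sav1 -/- tumours and 6.48 in surrounding liver.

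The c subunit of ATP synthase is encoded by several genes. Atp5g3 averaged 15.12 ± 0.34 in Sav1 -/- tumours, 15.36 ± 0.13 in surrounding liver and 15.25 ± 0.33 in Sav1 flox livers, and did not pass in either comparison (adjusted p = 0.2 and 0.55). Atp5g2 averaged 10.86 ± 0.39 in Sav1 -/- tumours and 10.07 ± 1.30 in Sav1 flox livers, and the difference of 0.79 did not pass (adjusted p = 0.065) and was 0.08 without Sav1 flox liver 2. Its level in Sav1 flox liver 2 was 8.66, the lowest of the 33 arrays.

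Complex IV has tissue-restricted isoforms, of which Cox6a2, Cox7a1 and Cox8b are known from heart and skeletal muscle, Cox4i2 from lung and Cox6b2 from testis. Cox6b2 was at 6.10, 6.61 and 8.43 (lowest, median, highest) in Sav1 -/- surrounding liver, with 5 of 7 arrays above background, against 5.65, 5.66 and 5.66 in Sav1 flox livers, where 0 of 3 were above background. Cox6b2 was at least 1.22-fold higher in the surrounding liver (adjusted p = 0.035), a bound set by the lowest signal above background on the flox arrays, and values below background have no order. It did not pass with the array set as a block (adjusted p = 0.32), within set A (0.14), without flox liver 1, 2 or 3 (0.08, 0.14 and 0.096) or without surrounding liver 6 or 7 (0.061 and 0.063). It was at 6.62, 6.55, 7.16 and 7.40 in Mst1/2 -/- tumours, 7.67, 8.26 and 8.18 in the surrounding livers and 8.18, 8.20 and 8.08 in Mst1/2 flox livers. A second Cox6b2 probe, above background on 8 arrays, gave -0.16 for Mst1/2 -/- tumours against flox livers.

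Cox6a2 was at 6.17, 6.88 and 7.43 in Sav1 -/- tumours, with 9 of 11 arrays above background, against 6.11, 6.04 and 6.01 in Sav1 flox livers, with 0 of 3. Cox6a2 was at least 1.04-fold higher in the tumours (adjusted p = 0.0049). Cox8b was at 5.98, 6.26 and 6.40 in Sav1 -/- tumours, with 1 of 11 arrays above background, against 6.21, 6.69 and 8.05 in the surrounding liver, with 5 of 7, and differed by -0.55 ± 0.16 (adjusted p = 0.019). The highest surrounding livers were of set C, and the difference was -0.34 without surrounding liver 7 (adjusted p = 0.04), -0.49 without surrounding liver 6 (adjusted p = 0.057), -0.30 within set A and -0.86 within set C. The ubiquitous isoforms did not pass: Cox6a1 averaged 13.60 ± 0.65 in Sav1 -/- tumours and 13.78 ± 0.90 in Sav1 flox livers, and Cox4i1 averaged 13.88 ± 0.23 and 13.76 ± 0.60 in the same groups. Without Sav1 flox liver 2 their differences were -0.71 (adjusted p = 0.2) and -0.22 (adjusted p = 0.35). Of 10 striated muscle markers, 7 were above background on at least 1 array of the Sav1 -/- tumours, 3 in the surrounding liver and 2 in Sav1 flox livers, and Ckm, Tnnc2 and Myh6 were above it on 0 tumour arrays. The 6 muscle markers tested summed to 456 to 607 in Sav1 -/- tumours and 496 to 623 in the surrounding liver, against 518 to 566 in Sav1 flox livers. The 3 adipocyte markers tested of 6 summed to 213 to 264 in Sav1 -/- tumours against 226 to 274 in the surrounding liver, and Plin1, Fabp4 and Ucp1 were above background on 0 arrays of either group. The part of these cells in the isoform levels was not tested.

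**Figure D5:**
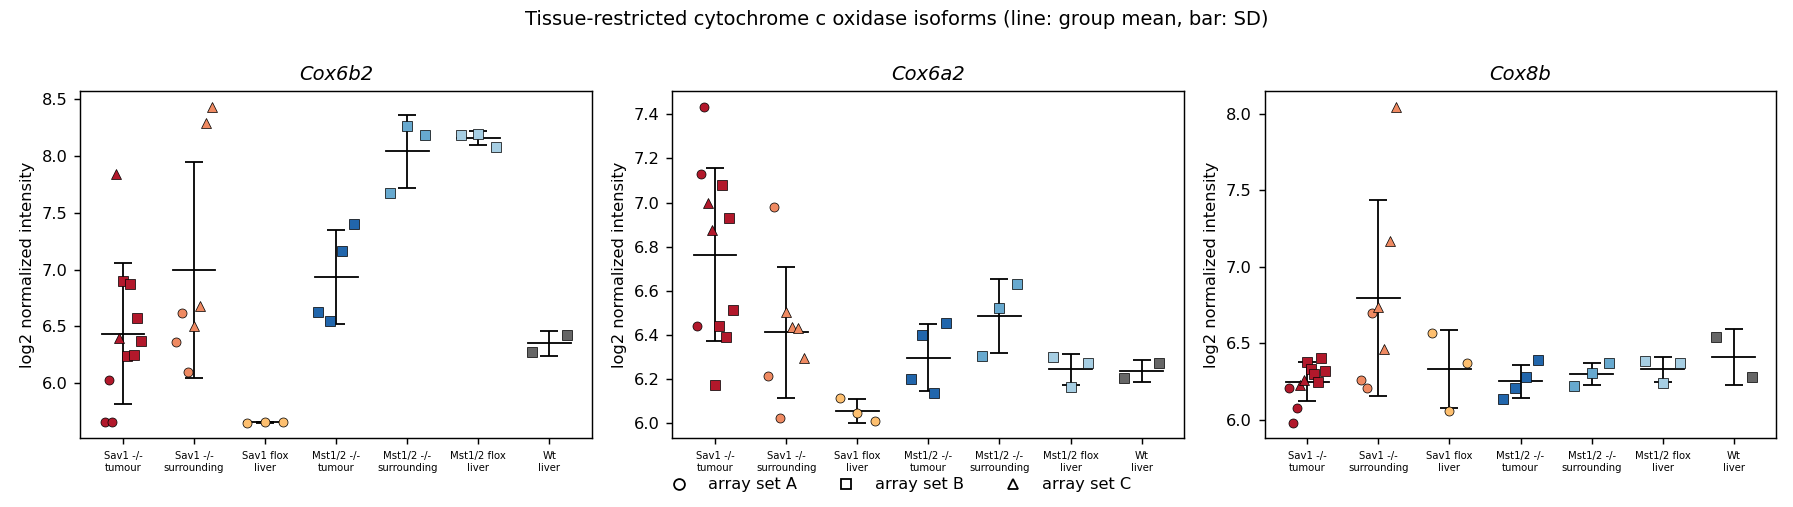
Log2 level of the isoform genes Cox6b2, Cox6a2 and Cox8b on each array, by group, with points for samples shaped by array set, lines for the mean and bars for the SD. Cox6b2 has its highest group means in Mst1/2 -/- surrounding and Mst1/2 flox livers and lies at the floor of the scale in Sav1 flox livers.

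Genes that serve the same complexes were followed in lists beside the subunits, and their counts are read against the shares over all genes: 33.4% in Sav1 -/- tumours against Sav1 flox livers (21.0% without liver 2), 20.3% in Mst1/2 -/- tumours against Mst1/2 flox livers and 12.9% in Sav1 -/- tumours against surrounding liver. Of 39 assembly factors, 12 fell and 3 rose in Sav1 -/- tumours relative to Sav1 flox livers (38.5%), and 11 fell and 1 rose without Sav1 flox liver 2 (30.8%). In the other 2 comparisons, 7 fell in Mst1/2 -/- tumours relative to Mst1/2 flox livers (17.9%) and 3 fell in Sav1 -/- tumours relative to surrounding liver (7.69%), and 0 rose. Their median difference was -0.13 in Sav1 -/- tumours and -0.40 in Mst1/2 -/- tumours relative to flox livers, against 0.05 and 0.00 over all genes. Foxred1, which assembles complex I, fell in Sav1 -/- tumours against Sav1 flox livers (-1.51, and -1.29 without liver 2) and in Mst1/2 -/- tumours against Mst1/2 flox livers (-0.91). Taco1, an activator of mitochondrial Cox1 translation, differed by -0.97 (-0.94 without liver 2) and -0.99 and passed in each.

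Of 16 coenzyme Q and electron entry genes, 4 fell and 0 rose in each tumour comparison with flox livers (25% in both), and 3 fell and 1 rose in Sav1 -/- tumours without Sav1 flox liver 2. Coq9, a coenzyme Q biosynthesis protein, fell in Sav1 -/- tumours (-1.87, and -1.79 without liver 2) and in Mst1/2 -/- tumours (-1.27). Of 12 genes for mitochondrial DNA maintenance and transcription, 5 fell in Sav1 -/- tumours (41.7%), 2 without Sav1 flox liver 2, and 4 fell in Mst1/2 -/- tumours (33.3%), and 0 rose. Lrpprc, which stabilises mitochondrial mRNA, was counted with the assembly factors and not with these genes. It fell in Sav1 -/- tumours (-1.35, and with an adjusted p of 0.0062 without liver 2) and in Mst1/2 -/- tumours (-1.41).

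Of 73 mitochondrial ribosomal protein genes, 15 rose and 10 fell in Sav1 -/- tumours relative to Sav1 flox livers (34.2%), and 0 rose and 10 fell without Sav1 flox liver 2 (13.7%). In Mst1/2 -/- tumours 0 rose and 7 fell relative to Mst1/2 flox livers (9.59%). Their medians were -0.01 in Sav1 -/- tumours, -0.29 there without liver 2, and -0.31 in Mst1/2 -/- tumours. Of 16 citrate cycle and pyruvate dehydrogenase genes, 3 rose and 4 fell in Sav1 -/- tumours (43.8%), with 1 and 2 without Sav1 flox liver 2, and 1 rose and 2 fell in Mst1/2 -/- tumours (18.8%). Idh2 rose in Sav1 -/- tumours (1.64) and in Mst1/2 -/- tumours (1.02), and Fh1 fell in Sav1 -/- tumours (-1.03) and in Mst1/2 -/- tumours (-0.78), and both passed in Sav1 -/- tumours without liver 2 as well. Of 17 genes for membranes, carriers and chaperones, 2 rose and 5 fell in Sav1 -/- tumours (41.2%), with 2 and 2 without Sav1 flox liver 2, and 3 fell in Mst1/2 -/- tumours (17.6%).

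Among 6 subunits and carriers outside the symbol rule, Cyc1, the cytochrome c1 of complex III, fell in Sav1 -/- tumours relative to Sav1 flox livers (-0.97, and -1.06 without liver 2), relative to surrounding liver (-0.60) and in Mst1/2 -/- tumours relative to Mst1/2 flox livers (-0.88). Atpif1, which inhibits the reverse action of ATP synthase, rose in the same comparisons by 2.55 (adjusted p = 6.8e-07, and 2.09 without liver 2), 1.06 (adjusted p = 0.002) and 1.54 (adjusted p = 0.0029). Of 11 regulators of respiratory genes, 0 passed by limma in Sav1 -/- tumours against Sav1 flox livers, with 4 at an unadjusted p under 0.05. Relative to Mst1/2 flox livers, Esrra (-1.13), Ppargc1b (-1.46) and Ppara (-0.95) fell in Mst1/2 -/- tumours. Myc was above background on 4 of 4 Mst1/2 -/- tumour arrays, against 0 of 3 Mst1/2 flox arrays, and was at least 1.18-fold higher in the tumours (adjusted p = 0.0027). Of 9 hypoxia and glycolysis markers, 2 rose and 1 fell in Sav1 -/- tumours against Sav1 flox livers (33.3%), with 0 and 1 without liver 2, and 1 fell in Mst1/2 -/- tumours against Mst1/2 flox livers (11.1%). Pdk1, an inhibitor of pyruvate dehydrogenase, fell in Sav1 -/- tumours against Sav1 flox livers (-1.08, and -1.26 without liver 2) and in Mst1/2 -/- tumours against Mst1/2 flox livers (-1.80). For Mst1/2 -/- tumours against surrounding liver, 0 genes of any of these lists passed by limma, and 0 to 9 genes of a list had an unadjusted p under 0.05.

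Where a member had more than 1 probe above background, the probes were compared. The 78 members had 118 probes in all, 30 members had more than 1, and 0 members had probes that passed in opposite directions.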

How the data were processed

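RNA of 33 mouse livers and liver tumours was measured on Illumina bead arrays of 45281 probes. The authors deposited non-normalized signal intensity per probe, read with BeadStudio per the submitters' processing notes, and a table of log2 values. The authors' log2 values equalled the quantile-normalized signals on a log2 scale to within 0.005 over all probes; no detection p-values were used here. A symbol was paired with 34885 probes, 18 had several and 10378 had none, which gave 19057 genes. The total signal of an array is no depth, and the number of arrays per group limits precision; between 35.1% and 52.3% of probes were above background.

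The deposited intensities were background-corrected with normexp (offset 50), log2-transformed and quantile-normalized with limma 3.58.1 in R 4.3.3. Background on each array was taken as symmetric about the most common signal, a probe was above it past its 99th percentile, and genes above it on at least 3 arrays were tested (13978). One limma fit over the 7 groups gave every difference, with empirical Bayes moderation and Benjamini-Hochberg adjustment over all genes tested; a gene passed at an adjusted p under 0.05. On simulated arrays with 200 genes changed 2-fold, 162 were recovered for Sav1 -/- tumours against surrounding liver, 91 for Mst1/2 -/- tumours against surrounding liver, 113 for Sav1 -/- tumours against Sav1 flox livers and 77 for Mst1/2 -/- tumours against Mst1/2 flox livers. In the same order, 14, 7, 7 and 7 unchanged genes passed. The simulated noise was independent between genes, with no array sets and no livers that stood apart, so these counts may not hold for the real arrays. A probe below background on every array of 1 group gives only a bound on the fold. Figures were drawn with Python 3.11.15 and matplotlib 3.10.9.

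Named members were, in each comparison, up to 6 with the largest rise and up to 6 with the largest fall among those that passed, every succinate dehydrogenase gene, tissue-restricted isoforms with their ubiquitous partners, the genes of the ATP synthase c subunit, the member of each complex with the widest range over group means, and members whose probes passed in opposite directions. Others named were chosen after their values were seen. The members and lists were chosen with earlier results of these data known.

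Replicate numbers in the labels are shared between groups. Deviations of samples with the same number correlated in all 3 pairs between the surrounding livers of the 2 genotypes (0.19, 0.34 and 0.18). Those livers come from different mice. Between Sav1 -/- tumours and surrounding liver the correlations were 0.56, 0.69 and 0.60 for numbers 1 to 3. They were 0.27 and 0.29 for numbers 5 and 6, and 0.07 for numbers 4 and 7. In no other comparison were all correlations above 0. The labels do not say that a number marks 1 mouse, so the numbers were not treated as pairs. Alternatives tried were other normalizations, offsets, filters and probe summaries, array weights, the replicate number or the array set as a block, fits on the groups compared or on 1 array set, Wt livers as the control, and leaving out each replicate. The array sets, the Wt control without Wt liver 7 and fits without Sav1 flox liver 2 were added after the data were seen.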

Additional observations from a re-analysis of the deposited data

Results flagged for a closer look

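In 52 groups of 4 to 10 samples over the 26 named members, 3 held 1 sample far from the others, where chance flags about 1 in 20 groups. Cox6a1, the ubiquitous isoform of a complex IV subunit, was at 12.69 in Sav1 -/- surrounding liver 4, the lowest of 7. Cox7a2 was at 9.69 in Mst1/2 -/- tumour 3, the highest of 4. Ndufb4 was at 8.65 in Mst1/2 -/- tumour 4, the lowest of 4.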

How the results depend on the processing

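The number of members that passed, of 75, changed with the setting. For Sav1 -/- tumours against surrounding liver it was 3, and 6 with array weights, 1 on these groups alone, and 0 within array set A or C. For Mst1/2 -/- tumours against surrounding liver it was 0, and 11 with array weights and 1 on these groups alone or within set B. For Sav1 -/- tumours against Sav1 flox livers it was 8, and 20 with median scaling, where 19 rose and 1 fell, 4 with the set as a block, 3 with that block and without Sav1 flox liver 2, 5 on these groups alone, 0 within set A, and 1 against Wt liver without replicate 7. With that block and without Sav1 flox liver 2, Ndufb4 (-0.21) and Atp5e (-0.11) were reversed. For Mst1/2 -/- tumours against Mst1/2 flox livers it was 6, and 3 with median scaling, 41 with array weights, 18 with the set as a block, 50 on these groups alone or within set B, 2 against Wt livers and 0 against Wt liver without replicate 7. For Sav1 -/- surrounding liver against Sav1 flox livers it was 1, and 8 with median scaling, 3 with the mean of probes, 5 with array weights, 3 against Wt livers and 0 with the set as a block, with that block without Sav1 flox liver 2, on these groups alone, within set A or against Wt liver without replicate 7. For Mst1/2 -/- surrounding liver against Mst1/2 flox livers it was 0, and 5 with array weights, 10 on these groups alone or within set B and 2 against Wt livers. For Sav1 -/- against Mst1/2 -/- tumours it was 2, and 13 with array weights, 15 with the set as a block, 0 on these groups alone and 11 within set B. For the surrounding livers of the 2 genotypes it was 0, and 5 with array weights and 3 with the set as a block. Those 2 groups share no array set. The blocked fit between them thus relies on set differences in Sav1 -/- tumours, the only group with arrays in set B and in other sets. With array weights, 13 members passed the interaction for tumour against flox liver, against 0, and 46 passed the F test, against 16. The cause of these changes was not tested.

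With the replicate number as a block, 1 member passed for Sav1 -/- tumours against surrounding liver (Sdhb, -0.86, adjusted p = 0.022), where Ndufa10 (adjusted p = 0.11) and Cox8b (adjusted p = 0.088) did not, 0 for Sav1 -/- tumours against Sav1 flox livers, 0 for Sav1 -/- surrounding liver against Sav1 flox livers, 0 for Sav1 -/- against Mst1/2 -/- tumours, and 2 between the surrounding livers of the 2 genotypes. Between Sav1 -/- tumours and surrounding livers of the same number the correlations of deviations were 0.56, 0.69, 0.60, 0.07, 0.27, 0.29 and 0.07, and 4 of the 7 pairs correlated best with their own number. Each fit with this block kept only samples whose number occurred in both groups. Mst1/2 flox livers share too few replicate numbers with the other Mst1/2 groups for such a fit.

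Leaving out each replicate gave 2 to 5 members for Sav1 -/- tumours against surrounding liver, 5 to 12 for Sav1 -/- tumours against Sav1 flox livers, 3 to 8 for Mst1/2 -/- tumours against Mst1/2 flox livers, 0 to 4 for Sav1 -/- surrounding liver against Sav1 flox livers, 0 to 5 for Sav1 -/- against Mst1/2 -/- tumours and 0 to 1 for the interaction with flox liver. Median scaling moved the median over all genes to 0.29 for Sav1 -/- tumours and 0.21 for surrounding liver against Sav1 flox livers, and to 0.18 for Mst1/2 -/- tumours and 0.16 for surrounding liver against Mst1/2 flox livers. With the authors' log2 values, an offset of 16 or the mean of probes, all 20 calls of members kept their direction and side of the threshold.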
